A study of Homo sapiens with 3 samples.

Results

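The genes of the DNA replication machinery were followed in H82R cells: 45 genes for origin licensing, helicase activation and the replication fork, chosen by name from 27574 genes counted. All 45 were detected, meaning at least 10 reads in every library, as were 14612 of all genes. The labels name the H82 line from ATCC, which is human and derived from small cell lung cancer, give lung as the tissue, and tumor treated with etoposide plus cisplatin as the treatment of every sample. The cells were grown in RPMI1640 with serum and antibiotics. The labels do not spell out the R in the name. The 3 RNA sequencing libraries, named replicates 1, 2 and 3, form 1 group with no untreated or parental reference. The values are therefore levels in these cells and their spread between libraries, and no effect of either drug can be read from them. Whether the libraries are separate cultures is not stated, so differences among these 3 samples may be technical. Every p-value here rests on these samples alone and does not extend to other cultures.

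Replication starts with licensing. The origin recognition complex binds DNA, and CDC6 and CDT1 load the MCM2 to MCM7 helicase onto it, while geminin, the product of GMNN, blocks CDT1 once S phase has begun. The kinase CDC7 with its activator DBF4, together with MCM10, CDC45 and the GINS complex, turns the loaded ring into a working helicase. At the fork, DNA polymerase alpha with primase lays primers, polymerases epsilon and delta extend the strands on the sliding clamp PCNA, the RFC complex loads that clamp, and RPA coats single-stranded DNA. Many of these genes are classic targets of E2F transcription factors, which RB restrains in resting cells. The drugs named in the labels act on DNA: etoposide is a topoisomerase poison that leaves strand breaks, and cisplatin makes crosslinks, and either kind of lesion can stall forks.

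Replicates 1, 2 and 3 held 25013265, 42610181 and 23868201 counts. Levels are in CPM, read counts scaled to the size of the library with TMM factors (trimmed mean of M values), and a count of 0 allows up to 0.121, 0.0702 and 0.125 CPM in replicates 1, 2 and 3. The member with the fewest reads in any library still had 415 of them, so depth does not limit the levels given here. All 8 neuroendocrine markers were detected, with a summed level of 1333 to 1345 CPM per library. Those of other cells were low: 2 of 6 fibroblast markers were detected (summed level 3.30 to 5.64 CPM), 2 of 4 endothelial (1.09 to 1.79 CPM), 3 of 6 leukocyte (30.8 to 40.6 CPM, CD68 the largest part) and 1 of 5 of other lung epithelium (8.70 to 14.2 CPM). SFTPC, SCGB1A1 and KRT5 had no read in any library, and the pan-leukocyte gene PTPRC had 6, 10 and 7 counts. Replicate 2 stood apart from the others: a chi-square test of homogeneity separated 52.5% of detected genes between replicates 1 and 2 and 53.9% between replicates 2 and 3, against 39.1% between replicates 1 and 3. Replicate 2 is also the deepest library, and a deeper pair calls more genes at the same difference. The SD of the log2 difference over detected genes was 0.406 and 0.420 for the pairs with replicate 2, against 0.343. The spread of the members between libraries is therefore given also from replicates 1 and 3 alone, an addition made after seeing the data.

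E2F-type motifs were common in the promoters of these genes, so the promoters of 4 helicase genes and of the licensing factor CDT1 are shown, with that of GMNN, which held no such motif, for contrast. RefSeq promoter windows on GRCh38.p14, from 250 bases before to 50 after the annotated start, were matched for 39 of the 45 genes. The motif searched was TTTCCCGC, TTTCGCGC, TTTGCCGC or TTTGGCGC on either strand, and capitals mark it below, on whichever strand it lies. Overlapping matches run together as 1 stretch of capitals, as in MCM2 and at both places in MCM6. Each printed stretch holds 280 bases, 250 before and 30 after the start, read 5′ to 3′ along the gene. They lie at chr3:127598161-127598440 (plus strand) for MCM2, chr6:52284713-52284992 (minus strand) for MCM3 and chr2:135876414-135876693 (minus strand) for MCM6. The others lie at chr7:100101368-100101647 (minus strand) for MCM7, chr16:88803539-88803818 (plus strand) for CDT1 and chr6:24774687-24774966 (plus strand) for GMNN.
MCM2: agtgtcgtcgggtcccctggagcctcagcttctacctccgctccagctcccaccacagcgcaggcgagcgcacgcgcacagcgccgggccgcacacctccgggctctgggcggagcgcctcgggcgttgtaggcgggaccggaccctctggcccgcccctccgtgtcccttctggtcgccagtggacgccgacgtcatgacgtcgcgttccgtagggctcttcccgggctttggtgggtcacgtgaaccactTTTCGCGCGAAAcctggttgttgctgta
MCM3: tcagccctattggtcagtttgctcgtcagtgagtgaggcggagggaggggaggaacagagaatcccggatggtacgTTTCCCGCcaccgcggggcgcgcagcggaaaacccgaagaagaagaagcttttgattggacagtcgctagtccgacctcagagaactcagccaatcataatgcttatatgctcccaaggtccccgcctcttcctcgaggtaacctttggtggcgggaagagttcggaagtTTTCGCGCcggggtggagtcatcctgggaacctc
MCM6: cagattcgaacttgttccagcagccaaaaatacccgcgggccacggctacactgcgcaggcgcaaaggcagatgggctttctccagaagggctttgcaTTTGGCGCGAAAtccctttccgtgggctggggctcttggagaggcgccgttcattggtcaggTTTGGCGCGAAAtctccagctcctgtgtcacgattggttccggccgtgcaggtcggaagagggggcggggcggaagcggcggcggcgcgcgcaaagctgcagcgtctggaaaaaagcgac
MCM7: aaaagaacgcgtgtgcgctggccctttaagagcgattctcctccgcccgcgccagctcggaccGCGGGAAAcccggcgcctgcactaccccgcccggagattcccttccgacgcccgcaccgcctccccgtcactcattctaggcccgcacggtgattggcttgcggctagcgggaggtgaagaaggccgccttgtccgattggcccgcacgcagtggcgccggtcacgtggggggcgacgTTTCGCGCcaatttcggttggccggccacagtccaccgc
CDT1: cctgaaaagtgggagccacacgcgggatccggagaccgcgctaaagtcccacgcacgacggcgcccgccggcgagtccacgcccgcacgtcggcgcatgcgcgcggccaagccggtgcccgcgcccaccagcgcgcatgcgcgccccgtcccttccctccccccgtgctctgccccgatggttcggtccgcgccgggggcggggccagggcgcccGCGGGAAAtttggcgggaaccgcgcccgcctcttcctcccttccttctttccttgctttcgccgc
GMNN: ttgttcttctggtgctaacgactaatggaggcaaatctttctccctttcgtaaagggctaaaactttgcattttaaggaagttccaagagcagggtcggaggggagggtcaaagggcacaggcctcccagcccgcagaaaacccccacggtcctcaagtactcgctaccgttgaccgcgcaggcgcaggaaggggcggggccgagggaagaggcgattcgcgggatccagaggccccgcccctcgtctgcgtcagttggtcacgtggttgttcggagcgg

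Of the 39 promoters, 17 (43.6%) held at least 1 E2F motif in the whole window, against 5.16% of the 10471 detected genes with a promoter and 3.31% of all 35116 promoters in the table. Counting only the 250 bases before the start left 11 members (28.2%), against 4.28% of detected genes and 2.79% of all promoters. All 4 MCM2 to MCM7 genes with a window had 1, namely MCM2, MCM3, MCM6 and MCM7, as did all 3 such GINS genes, but only ORC3 of the 6 origin recognition genes did. The other members with the motif were MCM8, CDC6, CDT1, POLA1, POLA2, POLE, POLE2, PCNA and RFC3. In MCM7 the match nearest the start ran from base -9 to -2, in CDT1 from -35 to -28 and in PCNA from -59 to -52, where base -1 is the last before the start. MCM6 held 4 matches as 2 overlapping pairs, between -152 and -141 and between -90 and -79. These are matches of letters and not measured binding.

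Other promoter words followed the members less closely. CCAAT was in 22 of the 39 promoters (56.4%), against 36.8% of detected genes and 34.6% of all promoters. The GC box GGGCGG was in 28 (71.8%), close to the 68% of detected genes and above the 45% of all. The CHR words TTTGAA or TTCGAA, known from genes of late cell cycle stages, were in 2 members, MCM6 and DBF4 (5.13%), against 11.4% of detected genes and 16.4% of all promoters. Median GC content of the window was 64.7% in the members and 65% in detected genes, so base composition was alike in both, and 58.7% in all promoters. Members with an E2F motif had a median level of 162 CPM (n = 17) and those without of 65.4 CPM (n = 22), not scaled for length. The ranges overlapped widely, from 0.24 to 4.25 and from -0.64 to 3.66 on the log2 scale of distance from the median detected gene. No p-value is given for any of these shares or levels.

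**Figure D1:**
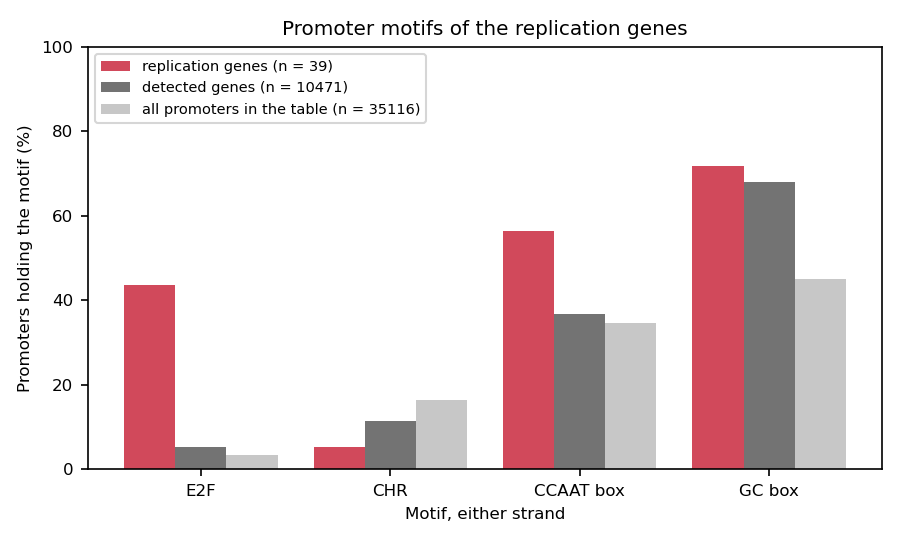
Share of promoters (y axis, percent) that hold each motif (x axis) on either strand in the window from 250 bases before to 50 after the start. Bars show replication genes (n = 39), detected genes (n = 10471) and all promoters of the table (n = 35116); the E2F motif is in 43.6%, 5.16% and 3.31% of them.

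Replication genes were expressed well above the typical gene. Their median level was 89.0 CPM, against 25.2 CPM for all detected genes, and the median gene of the 45 lay 1.82 above the median detected gene on the log2 scale. Against that median, limma's moderated one-sample test, adjusted by Benjamini-Hochberg across the 14612 detected genes, placed 42 of the 45 members (93.3%) above it, 1 below it and 2 at no distinguishable distance. Of all detected genes 45.9% were called above and 46.1% below. All 42 lay on that side in each of the 3 libraries. MCM9 was the member below, and POLE2 (adjusted p = 0.0557) and RPA3 (adjusted p = 0.393) were the ones not distinguished. POLE2 was called above without replicate 2 (adjusted p = 0.0024), with every gene of at least 1 count kept (1.83e-13) and per kb of exon (3.73e-05). The call of RPA3 turned with the setting: below with a filter of at least 1 CPM (adjusted p = 0.00312) and among protein-coding genes (0.00963), but above per kb of exon (0.000116) and with every gene of at least 1 count kept (5.73e-13). These are bulk RNA samples, in which fewer cycling cells and less RNA per cell cannot be told apart. Scaled by exon length, the same test placed 43 members above the median of detected genes and MCM9 below it, and did not distinguish ORC4. The median was 28.4 CPM per kb in the members and 7.39 CPM per kb in detected genes. Together the members took 0.566%, 0.576% and 0.609% of all counts in replicates 1, 2 and 3.

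**Figure D2:**
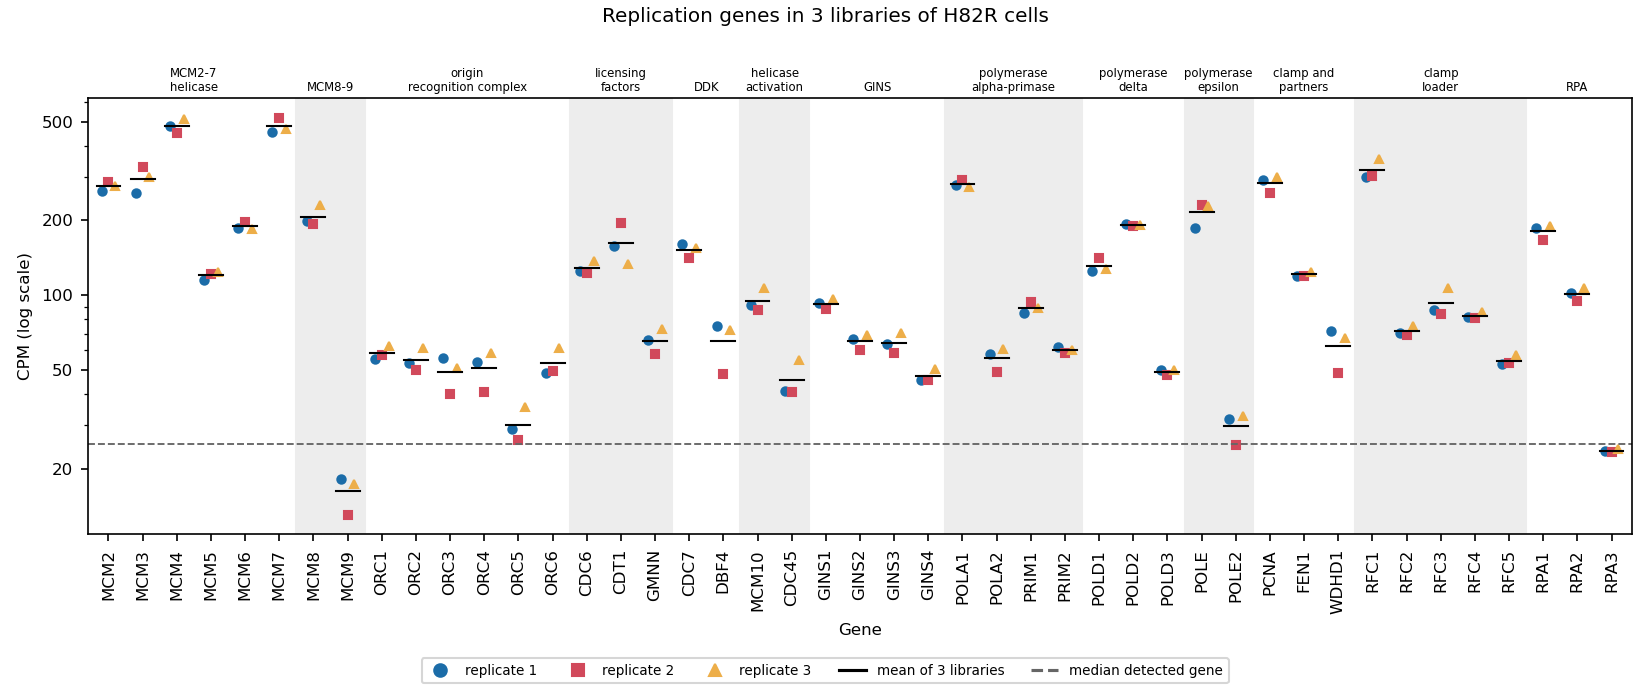
Level of each of the 45 replication genes (x axis, grouped by role) in CPM on a log scale (y axis). Points are the 3 libraries, bars their mean, and the dashed line the median detected gene at 25.2 CPM; MCM9 and RPA3 lie below the line in every library, and the MCM2 to MCM7 genes lie between 115 and 516 CPM.

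**Figure D3:**
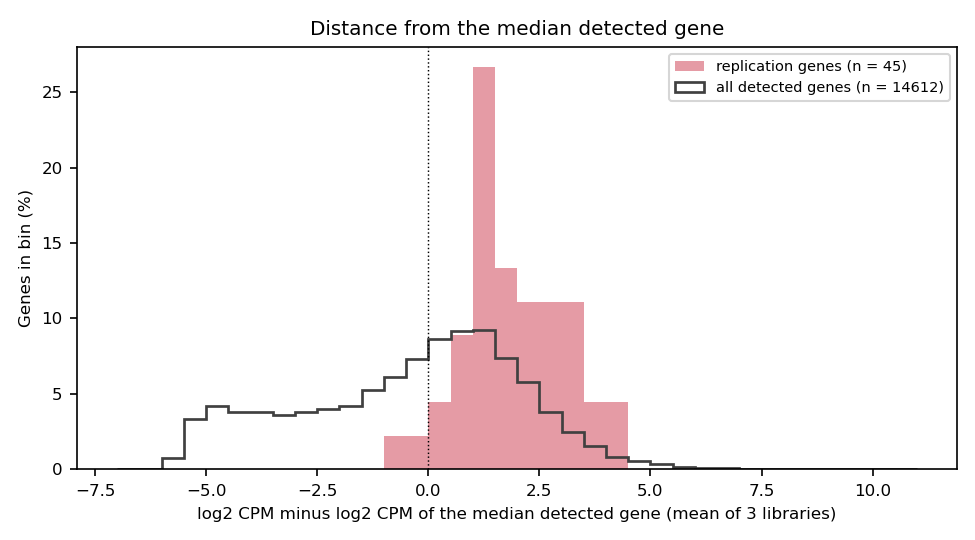
Distance of each gene from the median detected gene in log2 CPM (x axis), as the percent of genes per bin of 0.5 (y axis). The filled histogram holds the 45 replication genes, with a median of 1.82, and the outline all 14612 detected genes.

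The MCM2 to MCM7 helicase genes were all far above the median detected gene. MCM7 stood at 452, 516 and 469 CPM in replicates 1, 2 and 3, and MCM4 at 478, 450.3 and 511 CPM. Both lay 4.25 above the median detected gene on the log2 scale (SE 0.07, adjusted p = 1.53e-09 for MCM7 and 1.43e-09 for MCM4). MCM3 (258, 327 and 298 CPM), MCM2 (262, 285 and 276 CPM) and MCM6 (187, 196 and 184 CPM) also lay far above it, and MCM5 stood at 115, 122 and 124 CPM. These 6 genes alone took 0.174%, 0.190% and 0.187% of the counts. Per kb of exon the order was MCM7 (131 ± 9.11 CPM per kb, SD, n = 3), MCM4 (110.5 ± 7.01), MCM3 (91.6 ± 10.9), MCM2 (75.8 ± 3.12), MCM6 (50.6 ± 1.73) and MCM5 (34.0 ± 1.38), and it was the same in every library. The subunits form a ring with 1 copy of each. In mRNA, MCM7 exceeded MCM5 per kb by 3.81, 4.11 and 3.65 times in replicates 1, 2 and 3. With the longest transcript as length, the mean ratio was 5.93 in place of 3.85. Of the exon bases of MCM2, 23.6% overlap genes on the other strand, and whether reads were counted by strand is not stated, so reads there cannot be assigned with certainty.

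MCM8 and MCM9, relatives of the helicase that act together in recombination repair, were far apart. In GENCODE 29 on GRCh38, MCM8 lies at chr20:5950652-5998977 (plus strand) and MCM9 at chr6:118813442-118935162 (minus strand). MCM8 stood at 199, 193 and 230.5 CPM and MCM9 at 18.2, 13.1 and 17.3 CPM. The distance of MCM9 from the median detected gene on the log2 scale was -0.64 (SE 0.12, adjusted p = 0.00109). With every gene of at least 1 count kept, the median gene was lower and MCM9 lay 1.65 above it. Per kb of exon, MCM8 was 8.72, 11.8 and 10.7 times MCM9 in replicates 1, 2 and 3. Counting member subunits only, that gap was wider than between the highest and lowest subunit of any of the other 9 complexes compared. POLD4, a polymerase delta subunit outside the members, stood at 0.469 CPM per kb against 83.4 for POLD2, a wider gap.

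All 6 genes of the origin recognition complex lay above the median detected gene in CPM. ORC1, its cell cycle regulated subunit, stood at 55.4, 57.3 and 62.3 CPM, and ORC2 at 53.5, 49.98 and 61.1 CPM. ORC3 stood at 55.7, 39.9 and 51.0 CPM, lowest in replicate 2, and ORC6 at 48.4, 49.6 and 61.4 CPM, highest in replicate 3. ORC5 stood at 28.9, 26.1 and 35.4 CPM, 0.25 above the median on the log2 scale (SE 0.11, adjusted p = 0.048). That call was lost without replicate 1 (adjusted p = 0.0532), without replicate 3 (0.124), with limma-voom (0.0592) and among protein-coding genes alone (0.832). Per kb of exon ORC6 was highest (28.99 ± 3.93 CPM per kb) and ORC4 lowest (7.42 ± 1.35, next to 7.39 for the median detected gene), with ratios of 3.37, 4.57 and 3.94. ORC3 and ORC1 traded places between libraries in that order, as did ORC2 and ORC5. Between the recognition complex and the helicase, MCM2 exceeded ORC2 per kb by 5.84, 6.78 and 5.39 times.

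Among the licensing factors, the mRNA ratio of the loader gene CDT1 to GMNN, the gene of its inhibitor geminin, differed between libraries. CDT1 stood at 157, 195 and 134 CPM and GMNN at 65.8, 58.1 and 72.9 CPM in replicates 1, 2 and 3. GMNN has fewer exon bases (1359) than CDT1 (3240), so their ratio is lower per kb of exon than in CPM. The CDT1 to GMNN ratio per kb of exon was 1.002 in replicate 1, with a 95% Clopper-Pearson interval of 0.945 to 1.06. It was 1.40 (1.34 to 1.47) in replicate 2 and 0.771 (0.727 to 0.817) in replicate 3. The intervals cover counting error only, and they do not overlap. CDT1 was thus the higher of the pair in replicate 2 and the lower in replicate 3, and this was the ratio with the largest spread (SD of log2 ratio 0.43) among the 14 compared, as it was from replicates 1 and 3 alone (0.27). The transcripts differ in GC content, 64.9% in CDT1 and 43.6% in GMNN, and levels in replicate 2 moved with GC content, as described below. Against the mean of replicates 1 and 3, replicate 2 differed by 0.42 in CDT1 and -0.25 in GMNN on the log2 scale. Whether GC content bears on this ratio was not tested. CDC6, the ATPase that works with ORC to load the helicase, stood at 126, 122 and 137 CPM. It was 1.49, 1.40 and 1.45 times ORC1 per kb, with an SD of 0.04 on the log2 scale.

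Genes that fire licensed origins were all above the median detected gene. The kinase gene CDC7 stood at 161, 141 and 155 CPM and its activator gene DBF4 at 74.8, 48.3 and 72.4 CPM. DBF4 was thus lower in replicate 2 than in either other library, and per kb of exon it was 0.401, 0.294 and 0.403 times CDC7. MCM10, which joins the helicase as it is activated, stood at 91.3, 86.8 and 107 CPM. CDC45, a subunit of the active helicase, stood at 41.0, 40.8 and 54.7 CPM, higher in replicate 3 than in the others. Per kb of exon the MCM10 to CDC45 ratio was 1.05, 1.002 and 0.919. Among the 4 GINS genes, which complete the active helicase, GINS1 stood at 92.6, 88.0 and 96.5 CPM and GINS4 at 45.3, 45.6 and 50.2 CPM. GINS2 stood at 66.6, 60.1 and 69.2 CPM and GINS3 at 63.4, 58.5 and 70.1 CPM. GINS1, GINS2 and GINS3 lay close together per kb of exon, at 28.4, 24.4 and 26.8 CPM per kb. With the longest transcript as length, GINS3 was at 19.99 CPM per kb, below GINS2. GINS4 was at 8.62 CPM per kb, a level that depends on its exon length: with the longest transcript, GINS1 exceeded it by 2.34 times on average and with all exons by 3.30 times. Of the exon bases of GINS4, 23.6% overlap genes on the other strand.

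Within each replicative polymerase the order of the member subunit genes per kb of exon was the same in every library. For polymerase alpha, which starts each strand, POLA1 stood at 278, 291 and 274 CPM and POLA2 at 58.1, 49.1 and 60.5 CPM. The primase genes stood at 84.6, 93.8 and 88.5 CPM (PRIM1) and 61.6, 58.5 and 60.3 CPM (PRIM2). Per kb of exon PRIM1, with 1393 exon bases, was the highest of the 4 (63.9 ± 3.30 CPM per kb). POLA2 was the lowest (14.9 ± 1.61), by 3.92, 5.14 and 3.93 times. In GENCODE 29, 35.1% of the exon bases of POLA2 and 16.2% of those of PRIM1 are shared with a same-strand neighbour, so both counts are uncertain.

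For polymerase delta, the lagging strand enzyme, POLD2 stood at 193, 190.2 and 192 CPM, the smallest spread of all members before any correction (SD of log2 CPM 0.011). After the GC and length correction described with replicate 2, its SD was 0.084 and that of GINS1 the smallest, at 0.021. POLD1, the catalytic subunit gene, stood at 125, 142 and 128 CPM and POLD3 at 50.1, 47.6 and 49.99 CPM. POLD2 was 6.94, 7.19 and 6.92 times POLD3 per kb of exon. For polymerase epsilon, the leading strand enzyme, the catalytic POLE stood at 187, 229.7 and 229.5 CPM and POLE2 at 31.8, 24.9 and 32.7 CPM. Per kb POLE was 1.67, 2.62 and 1.99 times POLE2. The subunit genes POLE3 and POLE4, which are not members, stood at 40.6 and 7.01 CPM per kb.

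PCNA, the sliding clamp gene, had the highest level per length of all members, at 192 ± 14.5 CPM per kb of exon (SD, n = 3) and 292, 259 and 299 CPM in replicates 1, 2 and 3. The annotation holds 3 pseudogenes named after PCNA, as it does for RPA2, and 1 each for DBF4, POLD2, FEN1, RFC3 and RFC5. How reads shared with pseudogenes were counted is not stated, so these levels are uncertain to that extent. FEN1, the flap endonuclease that matures lagging strand fragments on the clamp, stood at 119, 119.7 and 124 CPM, which per kb was 0.262, 0.296 and 0.266 times PCNA. WDHD1, which links the helicase to polymerase alpha, stood at 71.5, 48.4 and 67.4 CPM. It was lowest in replicate 2 and was 0.235, 0.152 and 0.225 times POLA1 per kb.

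The clamp loader genes were all above the median detected gene. RFC1, the large subunit gene, stood at 298, 303 and 352 CPM, higher in replicate 3. RFC4 stood at 81.5, 81.2 and 85.2 CPM and RFC5 at 52.7, 53.2 and 57.5 CPM. RFC2 (70.1, 69.1 and 75.2 CPM) and RFC3 (87.2, 84.3 and 107 CPM) were also above the median. Per kb the order RFC1, RFC4, RFC2, RFC3, RFC5 was the same in every library, and RFC1 was 2.85, 2.87 and 3.08 times RFC5. The RPA genes for the single-strand binding trimer were uneven: RPA1 stood at 186, 167 and 190 CPM, RPA2 at 102, 94.9 and 106 CPM, and RPA3 at 23.6, 23.4 and 24.04 CPM. RPA3 was steady across libraries, and per kb of exon it was the lowest of the trimer, with RPA2 exceeding it by 4.58, 4.31 and 4.70 times.

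**Figure D4:**
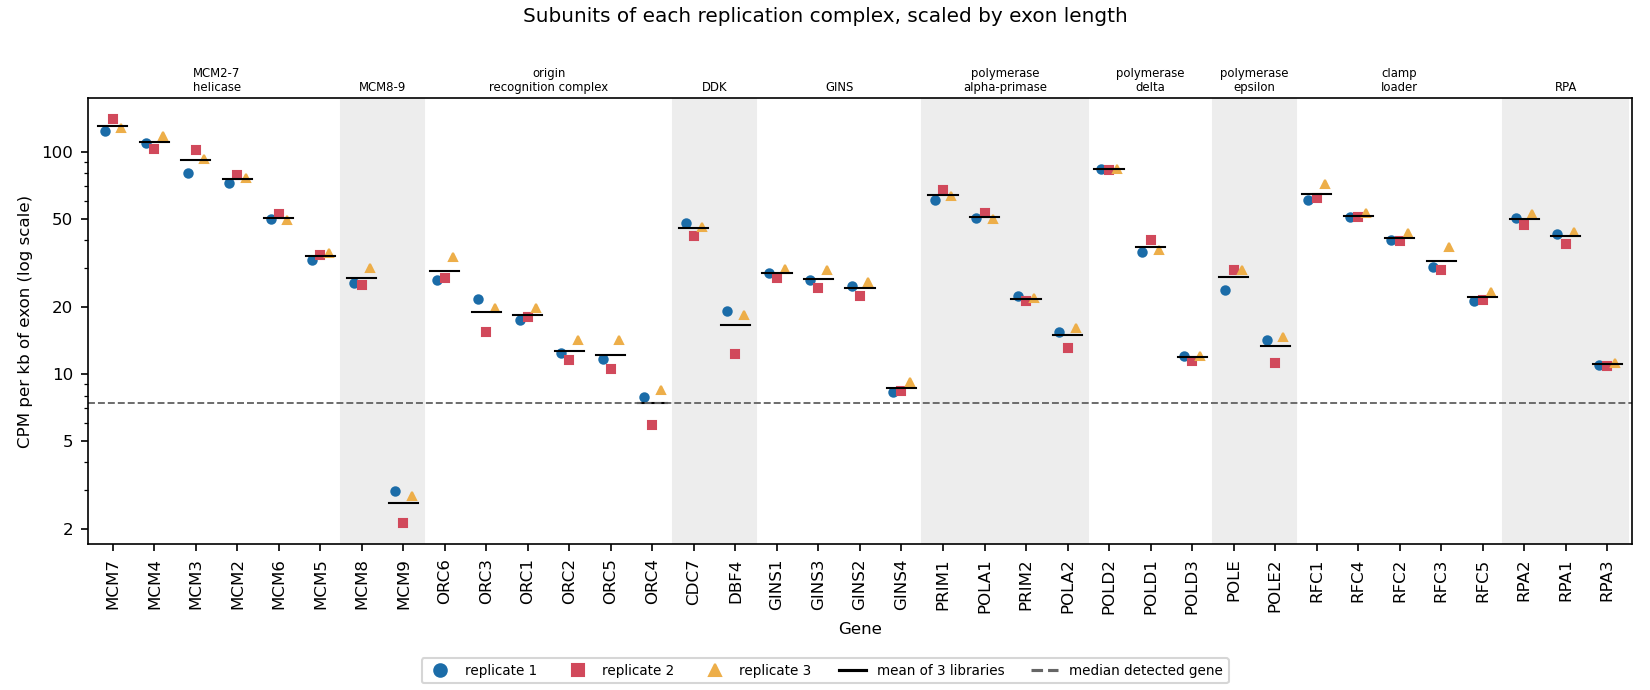
Level of each member subunit per kb of exon in CPM on a log scale (y axis), with subunits ordered from high to low within each of 10 complexes (x axis). Points are the 3 libraries, bars their mean and the dashed line the median detected gene at 7.39 CPM per kb. Among members, highest and lowest subunits differ from 2.06 times on average in polymerase epsilon to 10.3 times between MCM8 and MCM9. Subunits that are not members are left out, such as POLE3 (40.6 CPM per kb), POLE4 (7.01) and POLD4 (0.469).

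The order of subunits was mostly the same from library to library. In 9 of the 10 complexes compared, counting members only, the order of level per kb was the same in each library. The exception was the origin recognition complex, with 2 exchanges of neighbours. Of 14 fixed pairs, 12 had the same member higher in all 3 libraries, and the pairs that did not were CDT1 with GMNN and MCM10 with CDC45. An exact two-sided sign-flip test over 3 libraries cannot go below p = 0.25, so no pair can pass a threshold of 0.05, and those 12 all reached that smallest value (adjusted p = 0.292 over the 14).

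Levels of the members differed little between libraries, but more than counting error alone allows. The highest library exceeded the lowest by 1.14 times in the median member, from 1.015 times in POLD2 to 1.55 times in DBF4. The median SD of log2 CPM was 0.10 in the members and 0.17 in all detected genes. From replicates 1 and 3 alone it was 0.060 in the members and 0.12 in detected genes. The fold between those 2 libraries was 1.06 in the median member and at most 1.33, in CDC45. Members and detected genes were not matched for level, and counting error adds less to the SD of genes with more counts. A chi-square test of homogeneity, which tests against counting error only, called 38 of the 45 members (84.4%) at an adjusted p under 0.05, against 68.7% of all detected genes. The 7 not called were PRIM2, POLD2, POLD3, FEN1, RFC4, RFC5 and RPA3. Well-counted genes are called more easily, and the members are well counted. Of the 45 members, 20 were called without replicate 2, against 39.0% of detected genes. Without replicate 3 it was 25 of 45, against 51.1%, so both counts were near the share of detected genes. Without replicate 1 it was 34 of 45, against 52.8%, a wider gap.

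The members differed from each other in which library was highest. Of the 45, 28 (62.2%) were highest in replicate 3, against 32.5% of detected genes, and 29 (64.4%) were lowest in replicate 2, against 36.4%. DBF4, WDHD1 and ORC4 had the largest spread, with an SD of log2 CPM of 0.35, 0.30 and 0.28, and each was lowest in replicate 2. From replicates 1 and 3 alone their SD was 0.033, 0.060 and 0.083, and the largest were those of CDC45 (0.29) and ORC6 (0.24). ORC4 stood at 54.0, 40.7 and 58.6 CPM. CDT1 had an SD of 0.27, or 0.16 without replicate 2, and ran the other way, highest in replicate 2. Highest in replicate 2 were 9 members (20%, against 36.4% of detected genes): MCM2, MCM3, MCM6, MCM7, CDT1, POLA1, PRIM1, POLD1 and POLE. All 9 had a promoter window and 7 of them held an E2F motif, against 10 of the 30 other members with a window. These 9 were picked by the same values, and the motif share was not taken over all detected genes highest in replicate 2. Whether the motif and the level in replicate 2 go together was not tested.

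The level in replicate 2 moved with the GC content of the transcript, a comparison chosen after these values were seen. Among the 22 members with GC under 45%, 19 were lower in replicate 2 than the mean of replicates 1 and 3, against 65.9% of detected genes of that class. All 10 members with GC of 45% to 50% were lower too, against 45.6% of detected genes. Among the 13 with GC of at least 50%, 6 were lower and 7 higher, against 37.2% of detected genes lower and 62.8% higher. In the middle class the members thus ran lower in replicate 2 while detected genes were nearly evenly split. Spearman's rho between GC content and that log2 difference was 0.607 over the 45 members and 0.34 over 13525 detected genes, across genes that share the same 3 libraries and are not independent replicates. CDT1 (64.9% GC) was 0.42 higher in replicate 2 on the log2 scale and POLD1 (64.97% GC) 0.17 higher, whereas the difference was -0.61 for DBF4 (40.1% GC), -0.52 for WDHD1 (38.1% GC) and -0.47 for ORC4 (37.7% GC). After a correction of library sizes for GC content and length, 39 members were called as varying, against 69.9% of detected genes, with POLD2 and FEN1 gained and GINS1 lost. The SD of log2 CPM was then 0.11 in ORC4, 0.18 in WDHD1, 0.17 in CDT1 and 0.29 in DBF4. The median SD was 0.11 in the members and 0.16 in detected genes. Whether GC content gives rise to these differences was not tested.

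**Figure D5:**
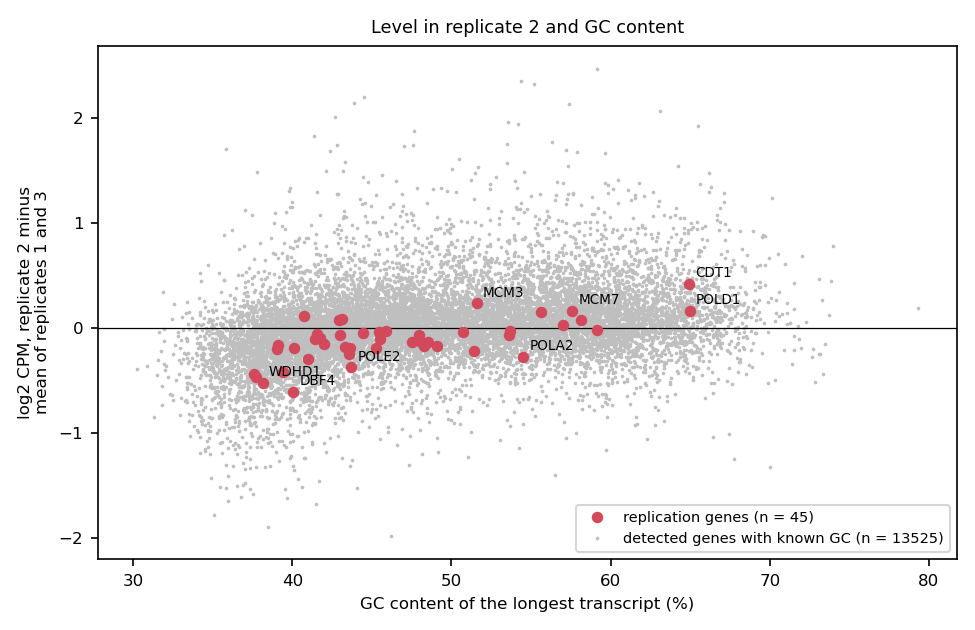
Log2 CPM in replicate 2 minus the mean of replicates 1 and 3 (y axis) against GC content of the longest transcript in percent (x axis). Large points are the 45 replication genes and small points the 13525 detected genes with known GC content; CDT1 lies at 0.42 and DBF4 at -0.61.

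Replication genes outside the 45 were also mostly above the typical gene. Of 37 such genes, covering origin firing, fork protection, histone deposition and nucleotide supply, all were detected, 27 lay above the median detected gene, 6 below it (TRAIP, ASF1A, LRR1, POLE4, RNASEH2A and POLD4) and 4 were not distinguished (MTBP, TIPIN, ASF1B and RNASEH2C), with a median of 80.6 CPM. Of all detected genes 45.9% were called above and 46.1% below. SSRP1 (675 CPM on average) and SUPT16H (396 CPM), which encode the histone chaperone FACT, and RRM1 (229 CPM), the large subunit of ribonucleotide reductase, were highest. POLD4, the smallest subunit of polymerase delta, was lowest at 0.805, 1.29 and 0.668 CPM, from 20, 55 and 16 counts. Its distance from the median detected gene on the log2 scale was -4.72 (SE 0.24, adjusted p = 2.24e-07), whereas POLD1, POLD2 and POLD3 all lay above. Of its exon bases, 21.3% are shared with a same-strand neighbour. RIF1, which restrains origin firing, and ATAD5, which unloads PCNA, were named after their values were seen: RIF1 stood at 244, 119 and 278 CPM and ATAD5 at 124, 71.7 and 132 CPM, both lowest in replicate 2.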

How the data were processed

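RNA sequencing read counts of 3 libraries of H82R cells were analysed. The authors deposited raw read counts per gene symbol, 1 column per library, matched by the sample titles. Per the submitters' processing notes, STAR 2.6.1b and hg38 were used, in roles not described. Not given in the sources used here are the counting program, its annotation and its strand setting. Of 27587 names, 13 had been turned into dates (0.0665% to 0.0736% of counts) and were dropped before any total was taken.

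Effective library sizes used TMM factors (edgeR 4.0.16; 0.993, 1.003 and 1.004). Genes with at least 10 counts in every library were tested. Log2 CPM, with a prior count of 2, was centred on each library's median detected gene and its distance from 0 tested, two-sided, by limma-trend in R 4.3.3 (limma 3.58.1). A chi-square test of homogeneity compared the spread between libraries with counting error. P-values of both were adjusted by Benjamini-Hochberg across the 14612 detected genes, with calls at 0.05. With 1 group there is no contrast, so no count model for a difference between groups was run. Both tests were tested on simulated data.

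Exon length (all exons of the basic set), position, GC content of the longest transcript and overlaps came from GENCODE 29 on GRCh38, which hg38 names, and covered 92.6% of detected genes and every member. Promoters came from RefSeq on GRCh38.p14. Intervals (exact Clopper-Pearson, 95%) and floors (3 counts) cover counting error only, since PCR copies of 1 molecule cannot be told apart without molecular identifiers.

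The members, lists, pairs and tests were chosen with earlier results of these data known. Every member is given a level; of the other replication genes, the 3 highest and the lowest are named, with exceptions stated. Alternatives were leaving out each library, other filters on low counts, limma-voom, a prior count of 0.5, unscaled totals, size factors of DESeq2 1.42.0, CPM per kb, protein-coding genes only, a threshold of 0.01, another gene length, a shorter promoter window, and, chosen after seeing the data, a GC and length correction, the spread from replicates 1 and 3, the longest transcript for pairs, and a requirement of the same side in every library. No member shared 50% or more of its exon bases with another gene.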

Additional observations from a re-analysis of the deposited data

How the results depend on the processing

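The count of members above the median detected gene stayed within 1.5 times of 42 under every alternative run, a wide margin for 45 genes. It was 41 without replicate 1, without replicate 3, with a filter of at least 1 CPM and with limma-voom, and 43 without replicate 2. With every gene of at least 1 count kept it was 45. The count below, 1 in the values reported, was 2 with a filter of at least 1 CPM, 2 among protein-coding genes and 0 with every gene of at least 1 count kept, where MCM9 lay at 1.65 because the median gene was then far lower. Keeping any gene with a count also left 2 other replication genes below, in place of 6. ORC5 (-0.054) and POLE2 (-0.070) changed sign with the filter of at least 1 CPM and ORC4 per kb of exon (-0.012), none then past the threshold. RPA3, at -0.082 in the values reported, changed sign and was called above per kb of exon (0.58, adjusted p = 0.000116) and with every gene of at least 1 count kept (2.21, adjusted p = 5.73e-13). These follow from where each setting puts the median gene and from gene length. Leaving out 1 library gave 20 to 34 of the 45 members that vary between libraries, from tests on fewer libraries. Of detected genes, 39.0% to 52.8% were then called. With the longest transcript as gene length, the mean ratio of highest to lowest member subunit was 5.93 for MCM2 to MCM7. It was 13.1 for MCM8 and MCM9, 2.34 for GINS, 4.92 for RPA and 1.62 for polymerase epsilon. In the other complexes that ratio moved by less than the spread between libraries. The order of mean levels changed in places: with the longest transcript ORC5 came above ORC2, and GINS2 above GINS3. In the shorter promoter window 11 members held the E2F motif and 1 the CHR word. The longest transcript, tried for pairs after seeing the data, also moved MCM8 over MCM9 to 13.1, POLE over POLE2 to 1.62, PRIM1 over PRIM2 to 2.34, RFC1 over RFC4 to 1.14 and FEN1 over PCNA to 0.254, with no pair of fixed direction reversed. Under the other alternatives run, pair ratios and the summed share moved by less than the spread between libraries. That outcome was fixed in advance for the pair ratios, so it is no sign of robustness. Scaling of library size cancels in a ratio taken within 1 library. Leaving out 1 of 3 libraries cannot move a mean by as much as its SD, which holds for the summed share too. No paired analysis was possible because all 3 libraries belong to 1 group. Depth does not limit the members' levels; length and overlap with other genes limit comparisons between them.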
